A study of Glycine max with 32 samples.

Results

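The phytochrome A and B genes of soybean were examined in leaves of a transgenic and a wild type line grown at 2 CO2 levels in the field and sampled at 2 growth stages. The 6 genes were chosen by identity: *E3* (*PHYA3*, Glyma.19G224200), *E4* (*PHYA2*, Glyma.20G090000), *PHYA1* (Glyma.10G141400), *PHYA4* (Glyma.03G227300), *PHYB1* (Glyma.09G035500) and *PHYB2* (Glyma.15G140000). Of these, 5 had a row among the 52872 soybean genes of the count table, and *PHYA4* was not analysed here. All 5 passed the low count filter in every fit, with 236 or more counts in each of the 32 libraries. Each gene identifier carries its chromosome, and 4 of the 6 genes were found by symbol on that chromosome in the RefSeq gene table of assembly Glycine_max_v4.0.

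Phytochromes are the red and far-red light receptors of plants. Each one carries phytochromobilin, a linear tetrapyrrole, and red light turns it into an active form that enters the nucleus and acts on phytochrome interacting factors (PIFs). Phytochrome A is light-labile and acts in far-red light and in seedlings leaving darkness, whereas phytochrome B is light-stable and is the main receptor for the shade of neighbouring leaves. Soybean keeps duplicated copies of both types from an old genome duplication. *E3* and *E4* are maturity loci, whose functional alleles delay flowering in long days.

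VPZ-34A is 1 transformation event of cultivar Maverick that overexpresses the Arabidopsis genes *AtVDE*, *AtPsbS* and *AtZEP*, from promoters other than those of the native genes, and the WT was non-transgenic seed of that cultivar. Both lines were grown at e[CO2] (600 µmol mol−1) in rings 3, 5, 6 and 8 and at a[CO2] (410 µmol mol−1) in rings 1, 2, 4 and 7, which are open field plots, and each ring held both lines. The youngest fully expanded leaf was sampled 86 days after sowing at R5–R6, during seed filling (the labels write R6), and 31 days after sowing at V4–V5, in vegetative growth. Each of the 8 groups of stage, line and CO2 level had 4 samples, 1 from each ring, and each sample pooled leaf disks of 3 plants. Each stage was sampled on 1 date, so that plant age, leaf position, day length and weather cannot be told apart in the stage comparison. The exact permutation p-values measure the spread between rings of this field and season. The other reported fits had no ring term, so libraries of the same ring counted as separate samples. For CO2, which was set by ring, their p-values therefore do not measure the spread between rings alone.

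Libraries held 16091207 to 63132399 counts (median 20437366). The 3 transgenes ranged from 51.2 to 3977 CPM (counts scaled to library size) in VPZ-34A and never passed 0.826 CPM in WT, so that every library matched its labelled line. The 7 native soybean *VDE*, *PsbS* and *ZEP* genes, which act in chloroplasts, had 20 counts or more in every library, and 2 of them exceeded 1000 CPM throughout. Because reads with several alignments were split between genes, *E4* and *PHYA1* had values that were not whole numbers in 17 libraries, and in all 17 the sum of both copies was whole. For *PHYB1* and *PHYB2* this held in 17 of 27 libraries. Reads shared in this way belong to both copies in parts, so that the level of each copy is uncertain to that extent. Levels are therefore compared within a gene, and differences in level between genes, which also depend on transcript length, were not read.

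The question of the first comparison was whether phytochrome transcripts differed between R5–R6 and V4–V5. *E4* had the largest difference of the 5 genes, as its transcripts fell to 49.5 ± 10.1 CPM at R5–R6, against 101 ± 11.3 CPM at V4–V5 (SD, n = 16 each). *PHYB2* was the other gene that fell, by a small amount, while *PHYA1*, *PHYB1* and *E3* did not pass the test. In all, 2 of 5 phytochrome genes were called lower and 0 higher with edgeR's quasi-likelihood test at a Benjamini-Hochberg adjusted p of 0.05. Because 37.7% of the 35639 genes tested were called lower and 37.5% higher, this count stood near the background. The median log2 fold change (log2FC) of the 5 genes was −0.15, against 0.01 for all genes tested.

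Libraries are given in the order of rings 3, 5, 6 and 8 at e[CO2] and of rings 1, 2, 4 and 7 at a[CO2]. *E4* in VPZ-34A measured 53.4, 64.3, 39.5 and 40.3 CPM in the e[CO2] rings and 61.0, 61.3, 58.6 and 46.1 CPM in the a[CO2] rings at R5–R6. *E4* in VPZ-34A measured 108, 92.7, 87.3 and 90.3 CPM in the e[CO2] rings and 97.9, 117, 95.7 and 117 CPM in the a[CO2] rings at V4–V5. The highest R5–R6 library of this line, at 64.3 CPM, lay below its lowest V4–V5 library, at 87.3 CPM. *E4* in WT measured 61.3, 48.2, 41.2 and 29.0 CPM in the e[CO2] rings and 51.4, 51.7, 45.4 and 40.1 CPM in the a[CO2] rings at R5–R6. *E4* in WT measured 90.0, 89.2, 99.2 and 108 CPM in the e[CO2] rings and 119, 105, 86.2 and 109 CPM in the a[CO2] rings at V4–V5. The stages did not overlap in either line. Together, all 16 R5–R6 libraries lay below all 16 V4–V5 libraries, which was also the case for 12.1% of the genes tested.

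**Figure D1:**
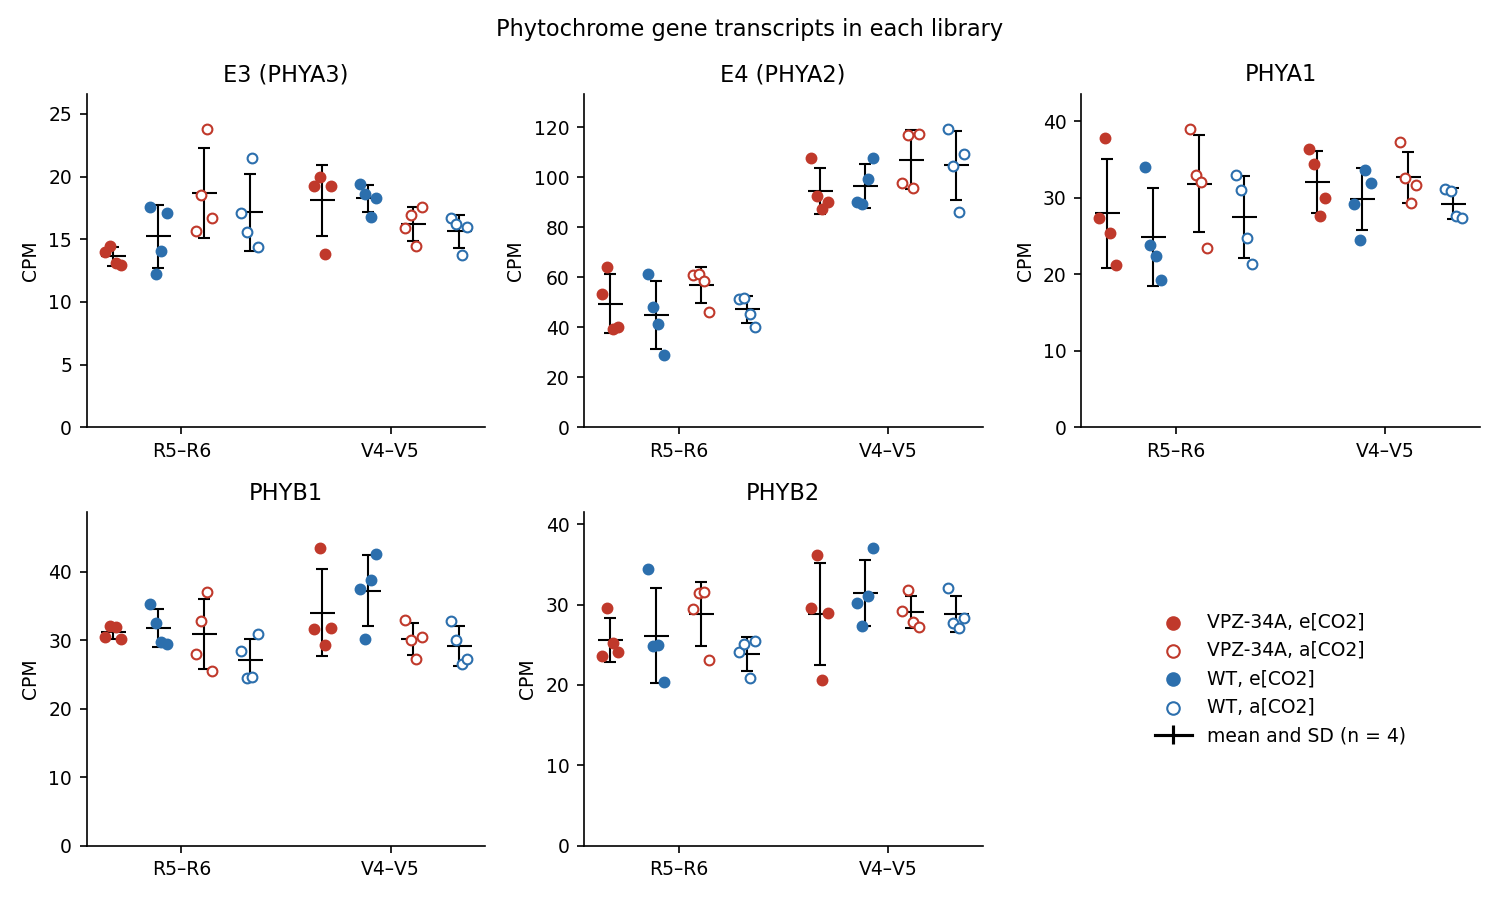
Transcript level in CPM (y axis, from 0) of 5 phytochrome genes in each of the 32 libraries, with R5–R6 left of V4–V5, VPZ-34A in red left of WT in blue, filled points for e[CO2], open points for a[CO2], and the mean and SD of 4 libraries. *E4* sits at 29.0 to 64.3 CPM at R5–R6 and at 86.2 to 119 CPM at V4–V5, while the stages overlap for the other 4 genes.

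The log2FC of *E4* between R5–R6 and V4–V5 was −1.03 (standard error 0.09), a fold of 0.491, with an adjusted p of 1.55e-11 in edgeR's quasi-likelihood test. A change this large was common, since 17.9% of the genes tested were called with a log2FC of −1 or less. Levels at R5–R6 relative to V4–V5 were below 1 in 8 of 8 rings, from 0.350 in ring 8 to 0.619 in ring 5. The ratio of group means was 0.522 in VPZ-34A and 0.465 in WT at e[CO2], and 0.531 in VPZ-34A and 0.450 in WT at a[CO2]. No difference in the size of the fall passed edgeR's quasi-likelihood test, either between lines (stage x line log2FC 0.20, standard error 0.17, adjusted p = 0.934) or between CO2 levels (stage x CO2 log2FC 0.01, standard error 0.17, adjusted p = 1.0). In bulk leaf tissue, fewer cells with the transcript and less transcript per cell cannot be told apart.

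*PHYA1*, the duplicate of *E4*, had 28.0 ± 6.22 CPM at R5–R6 and 31 ± 3.44 CPM at V4–V5 (SD, n = 16 each). *PHYA1* in VPZ-34A measured 27.3, 37.8, 25.4 and 21.2 CPM in the e[CO2] rings and 39.0, 33.0, 32 and 23.4 CPM in the a[CO2] rings at R5–R6. *PHYA1* in VPZ-34A measured 36.4, 34.4, 27.6 and 30.0 CPM in the e[CO2] rings and 37.3, 32.5, 29.4 and 31.6 CPM in the a[CO2] rings at V4–V5. The spread was wider at R5–R6, where ring 5 at e[CO2] and ring 1 at a[CO2] were high and ring 8 and ring 7 low in this line. *PHYA1* in WT measured 34.0, 23.8, 22.4 and 19.2 CPM in the e[CO2] rings and 33.0, 31, 24.8 and 21.4 CPM in the a[CO2] rings at R5–R6. *PHYA1* in WT measured 29.2, 24.5, 33.7 and 31.9 CPM in the e[CO2] rings and 31.2, 30.8, 27.6 and 27.3 CPM in the a[CO2] rings at V4–V5. The stages overlapped in both lines, and the log2FC was −0.15 (standard error 0.09, adjusted p = 0.135 in edgeR's quasi-likelihood test). The ratio of R5–R6 to V4–V5 was below 1 in 5 of 8 rings, from 0.653 in ring 8 to 1.05 in ring 1.

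Whether the copies of a pair changed by different amounts was tested on the log2 ratio of their counts within each library, which needs no scaling factor. *E4* supplied 63.9% ± 2.18 of the counts of *E4* and *PHYA1* at R5–R6, against 76.4% ± 2.20 at V4–V5 (SD, n = 16 each). The stages did not overlap, with 60.1% to 67.0% at R5–R6 and 72.4% to 80.0% at V4–V5. The share of other gene pairs that separate so was not counted. This ratio uses the same counts as the stage fits of *E4* and *PHYA1*, so it is not independent of them. The log2 ratio of *E4* to *PHYA1* was lower at R5–R6 by 0.88 (fitted −0.88, standard error 0.04), in 8 of 8 rings. The two-sided exact permutation test over rings gave p = 0.0078, the smallest that 8 rings allow, and 0.0469 after Benjamini-Hochberg adjustment over the 6 pair tests made. With a ring left out, the adjusted p was 0.0571 to 0.0857, no longer under 0.05, while the unadjusted p stayed at 0.0156, the smallest that 7 rings allow, and the difference stayed between −0.91 and −0.86. The same ratio differed by −0.06 between VPZ-34A and WT (standard error 0.06, exact permutation p = 0.422, adjusted 0.506) and by −0.07 between e[CO2] and a[CO2] (standard error 0.06, exact permutation p = 0.371, adjusted 0.506).

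**Figure D2:**
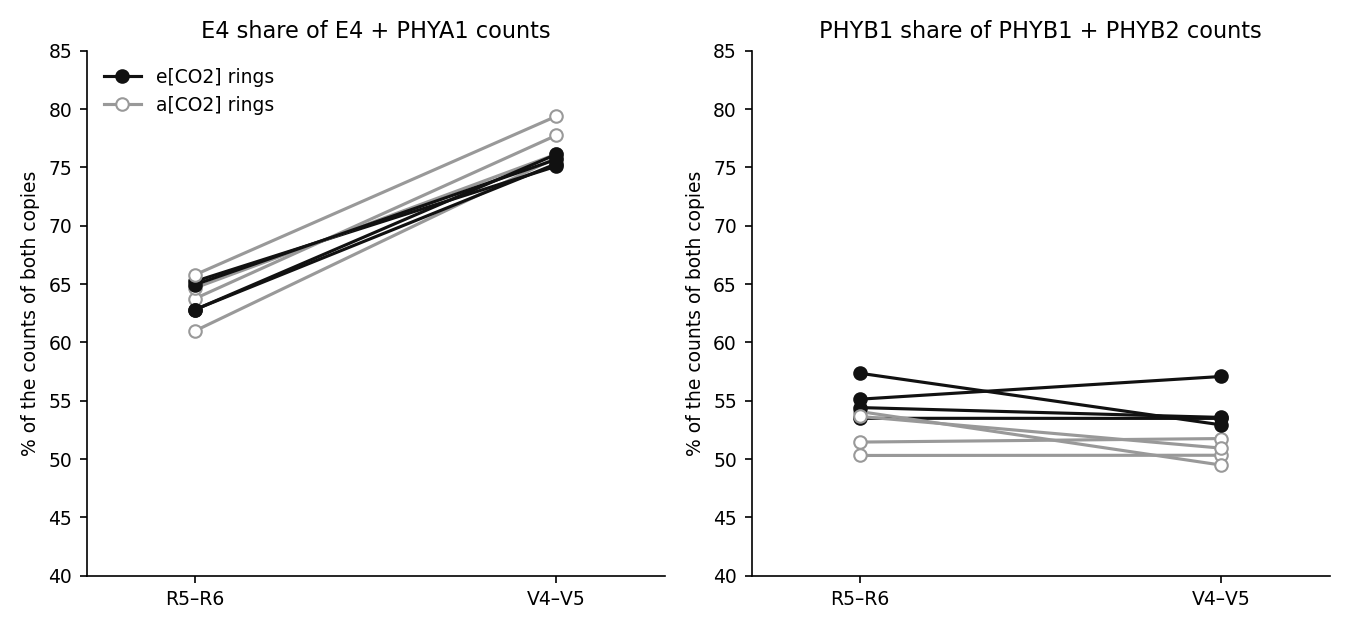
Share of the counts of a gene pair that belonged to the first copy (y axis, percent, not drawn from 0), as the mean of both lines in each ring at R5–R6 (left) and V4–V5 (right), with black points for e[CO2] rings and grey open points for a[CO2] rings. All 8 rings had the lower *E4* share at R5–R6, and the *PHYB1* share, averaged over both stages, was 53.5% to 56.1% in e[CO2] rings and 50.3% to 52.3% in a[CO2] rings.

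The third phytochrome A gene, *E3*, had 16.2 ± 3.12 CPM at R5–R6 and 17.1 ± 1.99 CPM at V4–V5 (SD, n = 16 each), a log2FC of −0.08 (standard error 0.07, adjusted p = 0.292 in edgeR's quasi-likelihood test). Its call depended on ring 4, without which the log2FC was −0.18 and the adjusted p 0.0177, whereas without ring 2, 5 or 7 the log2FC was −0.042, −0.031 and −0.018 with adjusted p-values of 0.662, 0.732 and 0.837 in the same order. *E3* in VPZ-34A measured 14, 14.5, 13.1 and 12.9 CPM in the e[CO2] rings and 15.7, 18.5, 23.8 and 16.7 CPM in the a[CO2] rings at R5–R6. *E3* in VPZ-34A measured 19.3, 20, 13.8 and 19.3 CPM in the e[CO2] rings and 15.9, 16.9, 14.5 and 17.6 CPM in the a[CO2] rings at V4–V5. In this line the e[CO2] libraries were the low ones at R5–R6, with no overlap between CO2 levels. *E3* in WT measured 17.6, 12.3, 14.1 and 17.1 CPM in the e[CO2] rings and 17.1, 15.6, 21.5 and 14.4 CPM in the a[CO2] rings at R5–R6. *E3* in WT measured 19.4, 18.6, 16.8 and 18.3 CPM in the e[CO2] rings and 16.7, 16.2, 13.7 and 16 CPM in the a[CO2] rings at V4–V5. Here the CO2 levels overlapped at R5–R6 and did not overlap at V4–V5, where e[CO2] was higher. These separations within a line are descriptions, since the share of all genes that separate so was not counted. Ring 4 gave the highest *E3* value at R5–R6 in both lines and the lowest a[CO2] value at V4–V5 in both lines. Its R5–R6 libraries were deeper than the median of 20437366 counts, with 63132399 in VPZ-34A and 43341836 in WT. Whether depth bears on these values was not tested.

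The fitted CO2 differences of *E3* had opposite signs at the stages, and none of them passed the adjusted test. The log2FC of e[CO2] over a[CO2] was −0.32 at R5–R6 (standard error 0.12, unadjusted p = 0.0153, adjusted p = 0.263) and 0.20 at V4–V5 (standard error 0.09, unadjusted p = 0.0348, adjusted p = 0.420) in edgeR's quasi-likelihood test. The difference of these effects, tested with edgeR's quasi-likelihood test in the model of all 32 libraries, was −0.50 (standard error 0.14, unadjusted p = 0.00133, adjusted p = 0.379) and did not pass. The ratio of R5–R6 to V4–V5 was 0.693 to 0.889 in the e[CO2] rings and 0.926 to 1.61 in the a[CO2] rings, where ring 4 was the highest. Ratios of e[CO2] rings that all lay below those of a[CO2] rings were found for 1.34% of the genes tested, and for 1 of the 5 phytochrome genes. Without ring 4 the CO2 difference at R5–R6 was −0.17, and the stage x CO2 difference was −0.31 with an adjusted p of 1.0, and in the other alternatives its adjusted p was 0.108 or more.

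**Figure D3:**
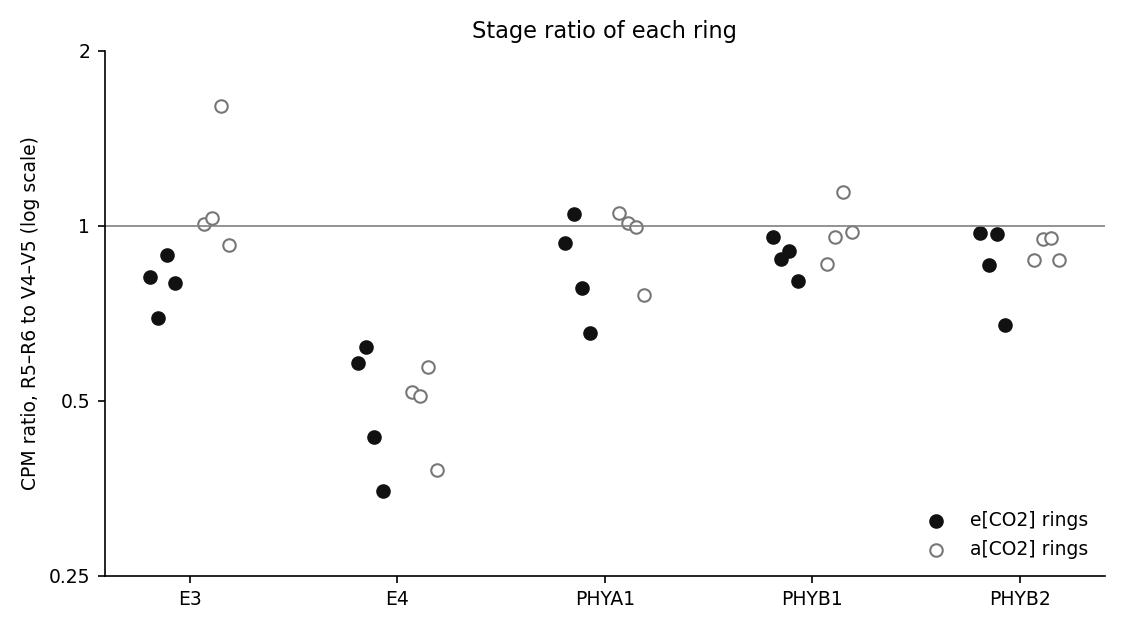
Ratio of the R5–R6 to the V4–V5 level in each ring (y axis, CPM of both lines averaged, log scale), with black points for e[CO2] rings left of open points for a[CO2] rings. All 8 ratios of *E4* and of *PHYB2* lie below 1, and only for *E3* do the e[CO2] rings all lie below the a[CO2] rings.

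Of the phytochrome B genes, *PHYB2* fell slightly at R5–R6 and *PHYB1* did not pass the test. *PHYB2* had 26.1 ± 4.01 CPM at R5–R6 and 29.5 ± 3.81 CPM at V4–V5 (SD, n = 16 each). *PHYB2* in VPZ-34A measured 23.6, 29.5, 25.2 and 24.1 CPM in the e[CO2] rings and 29.4, 31.4, 31.6 and 23.1 CPM in the a[CO2] rings at R5–R6. *PHYB2* in VPZ-34A measured 29.5, 36.1, 20.6 and 28.9 CPM in the e[CO2] rings and 29.2, 31.8, 27.9 and 27.3 CPM in the a[CO2] rings at V4–V5. The stages overlapped in this line. *PHYB2* in WT measured 34.4, 24.8, 24.9 and 20.3 CPM in the e[CO2] rings and 24.1, 25, 20.8 and 25.4 CPM in the a[CO2] rings at R5–R6. *PHYB2* in WT measured 30.2, 27.3, 31.1 and 37.1 CPM in the e[CO2] rings and 32.1, 27.7, 27.1 and 28.3 CPM in the a[CO2] rings at V4–V5. The stages overlapped through ring 3 at R5–R6, the highest WT library of that stage. The log2FC was −0.18 (standard error 0.07, adjusted p = 0.0314 in edgeR's quasi-likelihood test), and the ratio was below 1 in 8 of 8 rings, from 0.674 in ring 8 to 0.971 in ring 3. The call was lost when ring 1, 2, 5, 7 or 8 was left out, with log2FC values of −0.17, −0.17, −0.16, −0.16 and −0.12 and adjusted p-values of 0.0793, 0.0737, 0.0720, 0.0809 and 0.154 in the same order.

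*PHYB1* had 30.2 ± 3.52 CPM at R5–R6 and 32.7 ± 5.22 CPM at V4–V5 (SD, n = 16 each), a log2FC of −0.11 (standard error 0.06, adjusted p = 0.132 in edgeR's quasi-likelihood test). *PHYB1* in VPZ-34A measured 30.5, 32.1, 31.9 and 30.2 CPM in the e[CO2] rings and 28.0, 32.9, 37.0 and 25.5 CPM in the a[CO2] rings at R5–R6. *PHYB1* in VPZ-34A measured 31.6, 43.5, 29.3 and 31.8 CPM in the e[CO2] rings and 32.9, 30.1, 27.3 and 30.4 CPM in the a[CO2] rings at V4–V5. VPZ-34A of ring 5 at V4–V5 had the highest *PHYB1* value in any library. That library held 55755989 counts, above the median of 20437366, and whether depth bears on its value was not tested. *PHYB1* in WT measured 35.3, 32.5, 29.7 and 29.5 CPM in the e[CO2] rings and 28.4, 24.5, 24.6 and 30.9 CPM in the a[CO2] rings at R5–R6. *PHYB1* in WT measured 37.4, 30.2, 38.7 and 42.6 CPM in the e[CO2] rings and 32.9, 30.0, 26.5 and 27.3 CPM in the a[CO2] rings at V4–V5. In WT, 3 of the 4 e[CO2] libraries at V4–V5 lay above every a[CO2] library.

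The second question was whether e[CO2] altered phytochrome transcripts within a stage. For *PHYB1* at V4–V5, ring means of both lines were 34.0 to 37.2 CPM at e[CO2] and 26.9 to 32.9 CPM at a[CO2] and did not overlap, a separation in this direction that 2.32% of the genes tested had. The log2FC was 0.27 (standard error 0.10, unadjusted p = 0.0132), and the adjusted p was 0.310 in edgeR's quasi-likelihood test. At R5–R6, ring means of *PHYB1* were 29.8 to 32.9 CPM at e[CO2] and 28.2 to 30.8 CPM at a[CO2], which overlapped, and the log2FC was 0.12 (standard error 0.09, adjusted p = 0.584). No phytochrome gene was called for CO2 at either stage with edgeR, limma-voom or DESeq2. At an unadjusted p under 0.05 in edgeR, 1 of 5 passed at R5–R6 (*E3*) and 2 of 5 at V4–V5 (*PHYB1* and *E3*), where 13.5% and 10.8% of all genes tested did so. Among all genes, edgeR called 0.0% at R5–R6, where leaving out ring 3 or ring 7 gave 187 and 518 genes and DESeq2 619, and 0.199% at V4–V5. The remaining CO2 differences of *E4*, *PHYA1* and *PHYB2* lay between −0.17 and 0.07 on the log2 scale.

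*PHYB1* supplied 53.5% to 56.1% of the counts of the phytochrome B pair in the e[CO2] rings, against 50.3% to 52.3% in the a[CO2] rings. These are means over both lines and stages, and the share of other gene pairs that separate so was not counted. The log2 ratio of *PHYB1* to *PHYB2* differed by 0.18 between e[CO2] and a[CO2] (standard error 0.04). The field had 4 blocks, each with an e[CO2] and an a[CO2] ring, but the labels do not say which rings shared a block, so CO2 levels were compared unpaired. The two-sided exact permutation test of 4 against 4 rings gave p = 0.0286, the smallest it allows, and this failed the adjustment over 6 tests at p = 0.0857. Between R5–R6 and V4–V5 the ratio differed by 0.07 (standard error 0.05, exact permutation p = 0.180, adjusted 0.359) and between VPZ-34A and WT by −0.01 (standard error 0.03, exact permutation p = 0.664, adjusted 0.664).

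The third question was whether the transgenic line differed in phytochrome transcripts. None of the 5 genes was called between VPZ-34A and WT at either stage by edgeR, limma-voom or DESeq2, and 0 of 5 had an unadjusted p under 0.05 in edgeR, which 7.51% of genes tested had at R5–R6 and 3.42% at V4–V5. At the adjusted threshold the background was 0.0904% of genes called at R5–R6 and 0.0653% at V4–V5. At R5–R6 the log2FC lay between −0.02 for *E3* and 0.20 for *E4*, with adjusted p-values of 0.751 or more, and the widest 95% interval (normal approximation from the standard error) reached 0.48. At V4–V5 it lay between −0.06 for *PHYB2* and 0.13 for *PHYA1*, with intervals from −0.26 to 0.30. *E4* was higher in VPZ-34A than in WT of the same ring in 6 of 8 rings at R5–R6 and in 5 of 8 at V4–V5. *PHYA1* was higher in 7 of 8 rings at R5–R6 and in 6 of 8 at V4–V5. *E3* and *PHYB1* were each higher in 4 of 8 rings at R5–R6 and in 5 of 8 at V4–V5, and *PHYB2* in 6 of 8 at R5–R6 and in 3 of 8 at V4–V5. The line x CO2 interaction was called for 0 of 5 genes at both stages by these tests, with 0 at an unadjusted p under 0.05 in edgeR. The background was 0.0% at the adjusted threshold, and 2.41% at R5–R6 and 1.63% at V4–V5 at the unadjusted one. Its log2FC was −0.31 to −0.05 at R5–R6 and −0.17 to −0.05 at V4–V5.

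**Figure D4:**
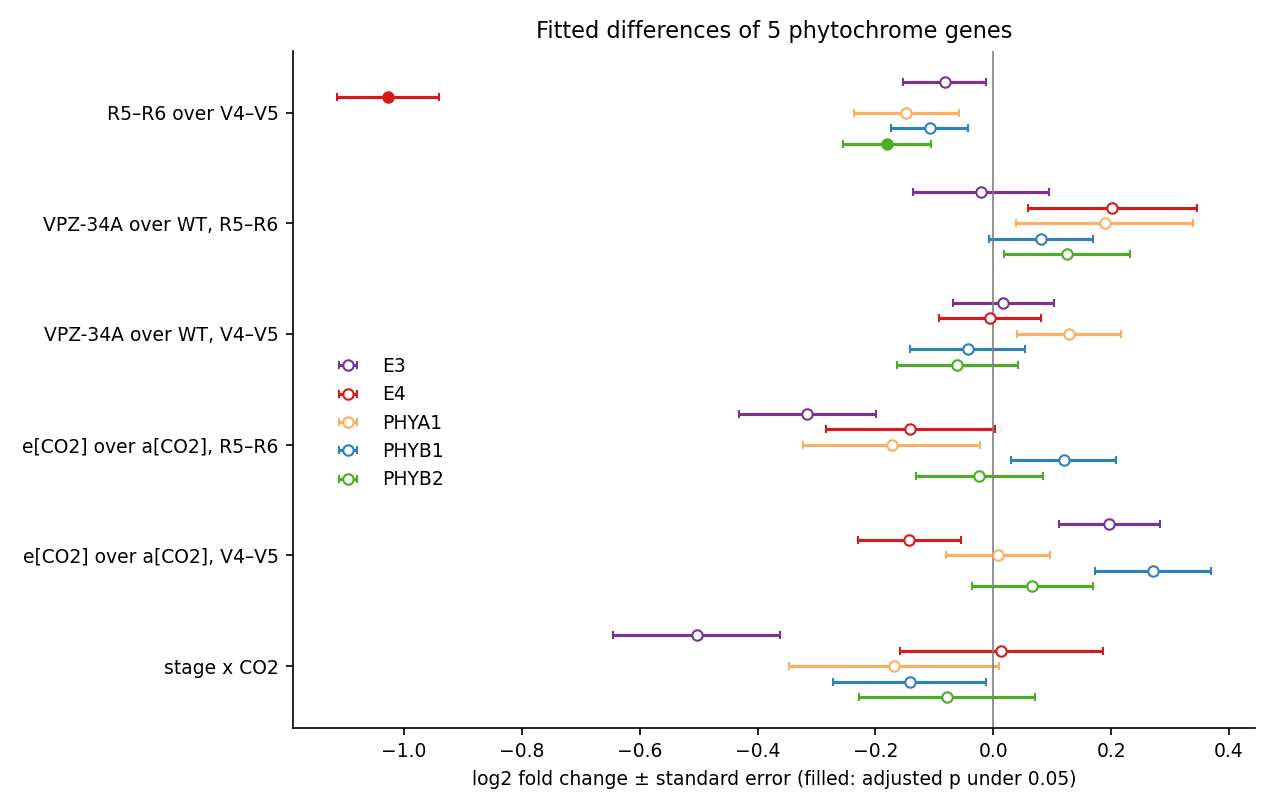
Log2FC with its standard error (x axis) of 5 phytochrome genes for the stage, for VPZ-34A over WT and e[CO2] over a[CO2] at each stage, and for the stage x CO2 difference, from edgeR. Filled points passed an adjusted p of 0.05, which only *E4* (−1.03) and *PHYB2* (−0.18) did, both for the stage.

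Among libraries of the same group, the phytochrome genes varied about as much as, or less than, the median gene. The genes compared were not matched for transcript level. The within-group SD of log2(CPM + 1) was 0.24 for *E4*, 0.25 for *PHYA1*, 0.18 for *E3*, 0.17 for *PHYB1* and 0.20 for *PHYB2*, against a median of 0.24 over all genes tested. Deviations from the group means over 32 libraries correlated with r = 0.81 for *E4* and *PHYA1* and r = 0.75 for *PHYB1* and *PHYB2*, the pairs that share reads. *PHYB2* also correlated with *PHYA1* (r = 0.68) and *E4* (r = 0.65), whereas *E3* correlated at 0.23 to 0.34 with each of the others. These values are descriptions, since the libraries share rings and the copies share reads.

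Over the 32 libraries, the gene whose log2(CPM + 1) was most like that of *E4* was Glyma.01G010200 (r = 0.97). Its level also fell at R5–R6 (log2FC −1.14, standard error 0.09), which follows from the choice, since likeness was taken over both stages. For *PHYA1* the most alike gene was Glyma.15G124700 (r = 0.85). The best r was 0.84 for *PHYB2*, and 0.75 for *PHYB1* and for *E3*. The sources used here give these genes no name.

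Genes that act with phytochromes, and the flowering gene *FT2c*, could be named only where the study did so. It chose them on these same samples, so that their direction is not independent evidence. The largest difference between the lines among them was in *HY2* (Glyma.14G136300), named from its Arabidopsis match as phytochromobilin synthase, the enzyme that makes the phytochrome chromophore. It was higher in VPZ-34A than in WT at both stages. *HY2* in VPZ-34A measured 15.7, 12.9, 2.33 and 12.6 CPM in the e[CO2] rings and 11.6, 13.3, 13.6 and 7.99 CPM in the a[CO2] rings at R5–R6. *HY2* in WT measured 0.900, 2.39, 2.43 and 4.42 CPM in the e[CO2] rings and 0.539, 0.647, 1.47 and 0.153 CPM in the a[CO2] rings at R5–R6. The lines overlapped at this stage through 1 library, VPZ-34A of ring 6 with 2.33 CPM, beside 2.43 CPM in WT of that ring. *HY2* in VPZ-34A measured 17.4, 18.9, 19.6 and 13.2 CPM in the e[CO2] rings and 11.3, 14, 15.2 and 12.6 CPM in the a[CO2] rings at V4–V5. *HY2* in WT measured 1.5, 0, 4.04 and 3.49 CPM in the e[CO2] rings and 1.77, 0.983, 0.523 and 0.586 CPM in the a[CO2] rings at V4–V5. The 0 in WT of ring 5 allows up to 0.178 CPM (3 counts of that library, for counting error only). The lines did not overlap at V4–V5, and in WT the e[CO2] rings 6 and 8 were the highest at that stage. The share of all genes that separate the lines so was not counted.

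The log2FC of *HY2* between VPZ-34A and WT was 3.0 at R5–R6 (standard error 0.42, adjusted p = 0.00571) and 3.34 at V4–V5 (standard error 0.38, adjusted p = 4.35e-04) in edgeR's quasi-likelihood test. VPZ-34A was higher in 7 of 8 rings at R5–R6 and in 8 of 8 at V4–V5. At R5–R6 the call was lost without ring 1, 2 or 5, with log2FC values of 2.95, 2.93 and 2.95 and adjusted p-values of 0.0517, 0.0568 and 0.0618 in the same order. The VPZ-34A library of ring 6 at R5–R6, low in *HY2*, had 101 CPM of *AtVDE*, 2033 CPM of *AtPsbS* and 1166 CPM of *AtZEP*, within the range of the other VPZ-34A libraries of that stage. *HY2* was not called for the stage (log2FC −0.26, standard error 0.29, adjusted p = 0.436). In edgeR's quasi-likelihood test its CO2 log2FC was 0.81 at R5–R6 (standard error 0.40, unadjusted p = 0.0621, adjusted p = 0.401). At V4–V5 it was 0.82 in the same test (standard error 0.37, unadjusted p = 0.0425, adjusted p = 0.444). The line x CO2 log2FC at R5–R6 was −1.81 (standard error 0.81, unadjusted p = 0.0389 in that test) and did not pass the adjustment.

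**Figure D5:**
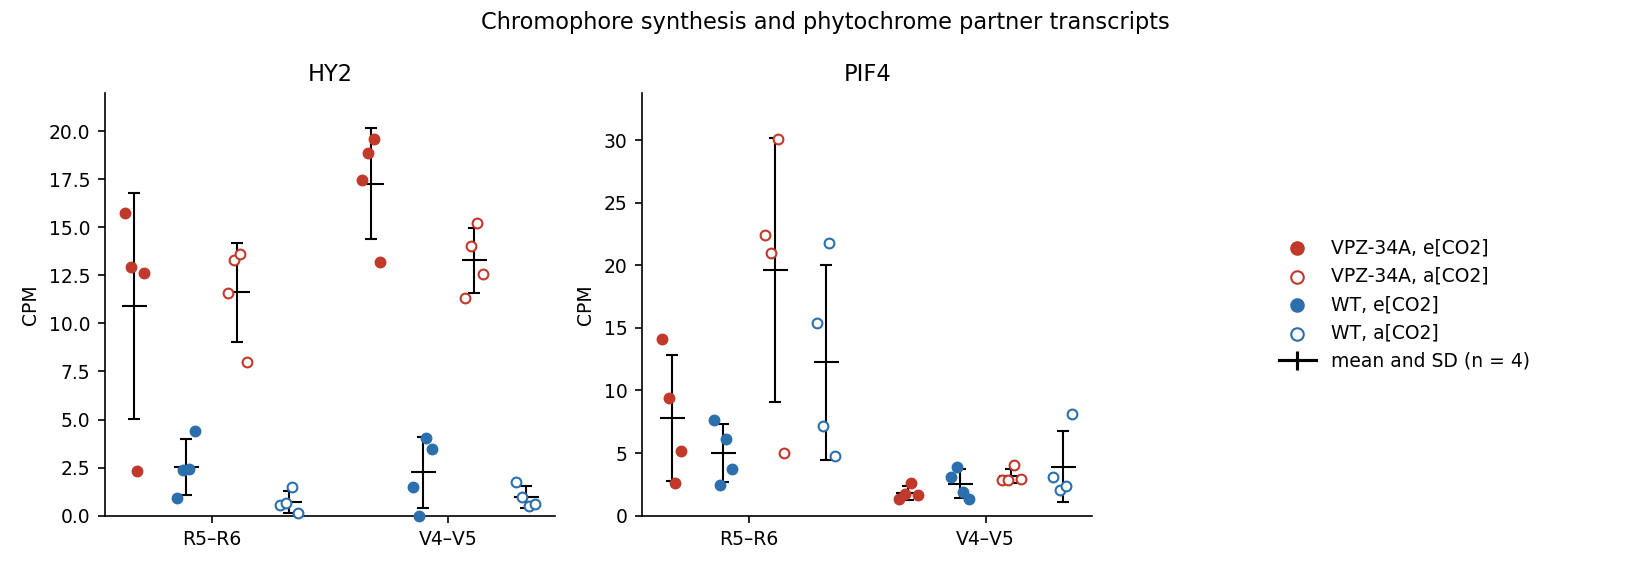
Transcript level in CPM (y axis, from 0) of *HY2* and *PIF4* in each of the 32 libraries, drawn as for the phytochrome genes, with the mean and SD of 4 libraries. *HY2* is higher in VPZ-34A except for the 2.33 CPM library at R5–R6, and *PIF4* reaches 30.1 CPM at R5–R6 and at most 8.14 CPM at V4–V5.

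*PIF4* (Glyma.02G282100) encodes a transcription factor that active phytochrome B binds and marks for breakdown in Arabidopsis. *PIF4* in VPZ-34A measured 14.1, 9.40, 2.60 and 5.14 CPM in the e[CO2] rings and 22.5, 21.0, 30.1 and 5.00 CPM in the a[CO2] rings at R5–R6. *PIF4* in WT measured 7.61, 2.44, 6.09 and 3.74 CPM in the e[CO2] rings and 15.4, 7.16, 21.7 and 4.74 CPM in the a[CO2] rings at R5–R6. At this stage the libraries of ring 7 were the lowest at a[CO2] in both lines. At V4–V5, the 16 libraries ranged from 1.31 to 8.14 CPM with a median of 2.7 CPM, against a median of 7.39 CPM at R5–R6. The stage log2FC was 1.84 (standard error 0.27, adjusted p = 7.07e-07 in edgeR's quasi-likelihood test), and 37.5% of the genes tested were called higher. *PIF4* was higher at R5–R6 in 7 of 8 rings, and in ring 7 the ratio was 0.877. The log2FC of *PIF4* for e[CO2] over a[CO2] was −1.33 at R5–R6 (standard error 0.42, unadjusted p = 0.00619, adjusted p = 0.205) and −0.69 at V4–V5 (standard error 0.28, unadjusted p = 0.0256, adjusted p = 0.382), neither of which passed. Without ring 7 the difference was −1.61 at R5–R6 (adjusted p = 0.0421) and −0.40 at V4–V5 (adjusted p = 0.520) in edgeR's quasi-likelihood test. Without ring 4 the R5–R6 difference was −0.95 (adjusted p = 0.500 in the same test).

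*IAA27/PAP2* (Glyma.15G017500), named phytochrome-associated protein 2 and an auxin response repressor in Arabidopsis, had 12.8 ± 3.57 CPM at R5–R6 and 57.4 ± 13.2 CPM at V4–V5 (SD, n = 16 each). The stages did not overlap, and the log2FC was −2.20 (standard error 0.12, adjusted p = 8.59e-16 in edgeR's quasi-likelihood test). Of the genes tested, 12.1% had all R5–R6 libraries below all V4–V5 libraries, and 37.7% were called lower. The line x CO2 log2FC of *IAA27/PAP2* at R5–R6 was 0.81 (standard error 0.27, unadjusted p = 0.00858 in edgeR's quasi-likelihood test) and did not pass the adjustment. Group means were 17.01 CPM at a[CO2] and 10.51 CPM at e[CO2] in WT, and 11.31 and 12.23 CPM in VPZ-34A. Its CO2 log2FC at that stage was −0.29 (standard error 0.13, unadjusted p = 0.0452, adjusted p = 0.360 in the same test). *FT2c* (Glyma.02G069500), of the *FLOWERING LOCUS T* family, known for promoters of flowering, had 8.81 ± 3.83 CPM at R5–R6 and 2.11 ± 1.31 CPM at V4–V5, a log2FC of 2.13 (standard error 0.22, adjusted p = 8.79e-10). *FT2c* was higher in 8 of 8 rings at R5–R6, and 37.5% of the genes tested were called higher at that stage. Its WT libraries at V4–V5 held only 8 to 53.67 counts, so that their levels are less certain. Values such as 8.33 counts in WT of ring 1 show that reads of *FT2c* were also divided with other genes. Between VPZ-34A and WT, *FT2c* differed by 0.76 at R5–R6 (standard error 0.22, adjusted p = 0.483) and 1.28 at V4–V5 (standard error 0.37, adjusted p = 1.0), with VPZ-34A higher in 6 of 8 and 8 of 8 rings. Without ring 7, whose WT library had 3.16 CPM against 0.473 to 0.640 CPM in the other a[CO2] rings, the V4–V5 difference was 1.80 with an adjusted p of 0.0360. Leaving out any other ring gave 1.03 to 1.44, with adjusted p-values of 0.881 or more in edgeR's quasi-likelihood test. The study reported *FT2c* as upregulated in VPZ-34A at V4–V5. It used limma on counts adjusted for batch effects of blocks or rings, with a relaxed fold threshold. The fits here used counts without that adjustment, and which step made the calls differ was not tested.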

How the data were processed

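Samples were assigned to stage, line, CO2 level and ring from the labels. The authors trimmed reads with Trimmomatic 0.39, aligned them with STAR 2.7.10a to the soybean genome Wm82.a4.v1 plus the transgenes, and counted them with featureCounts of Subread 2.0.4. The values deposited by the authors are estimated counts, since reads that aligned to several loci were divided among genes, and they carry no normalisation.

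Here counts were rounded, filtered with filterByExpr and scaled by TMM. The quasi-likelihood test of edgeR 4.0.16 (R 4.3.3) was fitted over all genes, per stage for line, CO2 and their interaction and over 32 libraries for the stage, with Benjamini-Hochberg adjustment per effect. These fits had no ring term. Standard errors of edgeR's log2 fold changes were computed as their absolute value over the square root of F. The fits were tested on simulated counts. Alternatives were RLE size factors, DESeq2 1.42.0, limma-voom (limma 3.58.1), no filter, 10 counts in every library, a ring block and each ring left out. Lines and stages are paired by the ring numbers of the labels, which mark shared plots. Deviations of both lines in a ring correlated with a median r of 0.39 at R5–R6 and 0.21 at V4–V5. The 48 pairs of replicate libraries were compared by a chi-square per gene of 11.6 to 193, so none was a copy.

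The genes and lists were chosen with earlier results of these data known. Named genes were the phytochrome genes, the genes most like *E4* and *PHYA1*, and phytochrome partners and the flowering gene *FT2c* that the study names. Tests of *E3* with *PHYA4* were planned and not made, because *PHYA4* was not analysed here. Other pathway lists, tissue markers and promoters were planned and are not reported here, because the tables used gave no descriptions or sequences for these identifiers.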

Additional observations from a re-analysis of the deposited data

Results flagged for a closer look

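Groups of 4 libraries were examined for a library far from the others. There were 8 groups for each of the 5 phytochrome genes, *HY2*, *PIF4*, *IAA27/PAP2* and *FT2c*. Of these 72 groups, 4 held such a library by Dixon's test, which chance gives in about 1 of 20 groups. *E3* in VPZ-34A at e[CO2] and V4–V5 had 13.8 CPM in ring 6, below 19.3 to 20 CPM in the other rings. *PIF4* in VPZ-34A at a[CO2] and V4–V5 had 4.04 CPM in ring 4, above 2.81 to 2.97 CPM in the other rings. *PIF4* in WT at a[CO2] and V4–V5 had 8.14 CPM in ring 7, above 2.09 to 3.07 CPM in the other rings. *FT2c* in the same group had 3.16 CPM in ring 7, above 0.473 to 0.640 CPM in the other rings.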

How the results depend on the processing

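The fall of *E4* at R5–R6 was called in all 14 alternatives (log2FC −1.07 to −0.95), and no phytochrome gene was called for line, CO2 or an interaction in any of them. Leaving out each ring gave 1 to 3 phytochrome genes called for the stage, a log2 ratio of *E4* to *PHYA1* of −0.91 to −0.86 between stages (adjusted p 0.0571 to 0.0857), and one of *PHYB1* to *PHYB2* of −0.036 to 0.0030 between lines. Of 45 combinations of gene and effect, 15 changed sign in an alternative, each with a size of 0.08 or less in the reported fit and of 0.14 or less where the sign was the other. Among named values these were *E4* for stage x CO2 (−0.027 in limma-voom, −0.026 with the random replicate block added, −0.10 to 0.16 without a ring), *E3* for line at R5–R6 (−0.080 to 0.019 without a ring) and *PHYB2* for line at V4–V5 (−0.15 to 0.0012).

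With the ring as a replicate block, which pairs lines and stages, the stage log2FC was −1.04 for *E4* and −0.18 for *PHYB2* (adjusted p = 0.0368), and 2 phytochrome genes were called. For the phytochrome genes, *HY2*, *PIF4*, *IAA27/PAP2* and *FT2c* the block changed no call. Over all genes it called 44 for line at R5–R6 and 19 at V4–V5, against 30 and 22 without it.

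Over all genes, DESeq2 called 6 for stage x line, 31 for stage x CO2, 121 for line at R5–R6, 42 for line at V4–V5, 619 for CO2 at R5–R6, 473 for CO2 at V4–V5 and 1 for each line x CO2 interaction, against 0, 0, 30, 22, 0, 67 and 0 in edgeR. With 10 counts in every library, 9 were called for line at R5–R6, 6 at V4–V5 and 1 for stage x CO2, in fewer genes tested. limma-voom called 1 for stage x line. For CO2 at V4–V5 it called 77, and 24 with the random replicate block. Leaving out a ring gave 15 to 40 for line at R5–R6, 0 to 518 and 15 to 78 for CO2 at R5–R6 and V4–V5, 0 to 1 for stage x line and 0 to 39 for stage x CO2. The cause of these differences was not tested.

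Each stage had 1 sampling date and VPZ-34A was 1 event, so date and event cannot be told apart from stage and transgenes. CO2 was replicated by 4 rings at each level, which limits the smallest exact p to 0.0286. Reads shared by the copies of a pair were divided before deposit.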
